A study of Mus musculus with 9 samples.

Results

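The genes described here are 42 components of the Wnt signalling pathway, chosen by symbol: 11 Wnt ligands, 2 genes for ligand lipidation and secretion, 11 Frizzled and Lrp receptors, 2 R-spondins with their receptor Lgr4, 6 secreted inhibitors with the Dkk co-receptor Kremen1, 5 feedback genes and 3 Tcf transcription factors. All 42 stood in the deposited table of 24532 genes, and 41 of them were among the 14507 genes with enough counts to be tested. Dkk1 was the exception, with 3 counts in 1 library and none in the other libraries. RNA was measured in keratinocytes, the epithelial cells of epidermis and hair follicles, sorted from the skin of C57BL/6 mice at postnatal day 1, 7 or 14, with 3 libraries per day. No genetic change or treatment is given for any group. Cells were taken by sorting on the absence of the leukocyte marker CD45.2 and of the dye propidium iodide, which enters dead cells. The gate used no surface marker of keratinocytes and would not have removed other skin cells that lack CD45.2. Nothing in the labels ties the libraries to separate or pooled animals. The p-values thus rest on the spread among the libraries at hand, which could be technical, although the mix of sexes also differed between the day 1 libraries (below).

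Wnt ligands are lipid-modified secreted proteins. Porcupine (Porcn) attaches the lipid and Wntless (Wls) carries the ligand to the cell surface. A ligand that engages a Frizzled receptor with its co-receptor Lrp5 or Lrp6 stops the destruction of beta-catenin, which then enters the nucleus and acts with Tcf and Lef factors on target genes. Some ligands, Wnt5a and Wnt11 among them, are also known for signalling without beta-catenin, through planar polarity proteins and the receptors Ror and Ryk. In skin, Wnt signalling is known for its part in hair follicle formation, hair growth and the upkeep of basal epidermal stem cells. Dkk, Sfrp and Wif proteins block the signal outside the cell. R-spondins, through Lgr receptors, keep the ubiquitin ligases Znrf3 and Rnf43 from removing Frizzled receptors. Axin2, Nkd1 and Nkd2 act inside the cell as inhibitors that the signal itself can induce.

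The upstream sequences of 4 members are shown because they include the largest rise (Wnt11) and the largest fall (Nkd1) of a member above 5 CPM in its higher day, the feedback gene most used as a readout of beta-catenin signalling (Axin2), and a ligand whose promoter holds a Tcf/Lef core (Wnt5b). Each run is the 250 bases before a start site in RefSeq's table for build GRCm38.p6, and capitals mark a match to a Tcf/Lef core. They lie at chr7:98834862-98835111 on the plus strand (Wnt11), chr6:119449387-119449636 on the minus strand (Wnt5b), chr11:108920099-108920348 on the plus strand (Axin2) and chr8:88527383-88527632 on the plus strand (Nkd1). For Nkd1 and Wnt5b the start site lies inside the gene, downstream of the gene's outermost start, and for Axin2 the RefSeq gene record also begins further upstream. The RefSeq gene record of Wnt11 begins within the last bases of the run shown.
Wnt11: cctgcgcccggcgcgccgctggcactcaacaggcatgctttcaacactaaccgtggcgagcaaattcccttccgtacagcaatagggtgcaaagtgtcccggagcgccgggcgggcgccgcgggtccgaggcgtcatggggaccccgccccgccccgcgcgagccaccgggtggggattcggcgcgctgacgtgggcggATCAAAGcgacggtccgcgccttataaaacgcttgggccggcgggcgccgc
Wnt5b: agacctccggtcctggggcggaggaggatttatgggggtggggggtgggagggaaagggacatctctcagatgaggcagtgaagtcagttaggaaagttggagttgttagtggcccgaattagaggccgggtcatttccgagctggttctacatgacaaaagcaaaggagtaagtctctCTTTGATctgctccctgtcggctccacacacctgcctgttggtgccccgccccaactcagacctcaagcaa
Axin2: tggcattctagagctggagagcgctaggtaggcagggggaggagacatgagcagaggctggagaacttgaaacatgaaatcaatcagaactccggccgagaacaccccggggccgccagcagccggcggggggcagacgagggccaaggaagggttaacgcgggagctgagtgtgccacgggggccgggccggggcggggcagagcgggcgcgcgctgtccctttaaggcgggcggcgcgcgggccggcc
Nkd1: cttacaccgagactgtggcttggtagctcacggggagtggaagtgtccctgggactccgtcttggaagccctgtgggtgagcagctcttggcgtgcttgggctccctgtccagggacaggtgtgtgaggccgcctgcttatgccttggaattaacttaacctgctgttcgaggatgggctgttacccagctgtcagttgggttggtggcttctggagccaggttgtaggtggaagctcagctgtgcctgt
The motif searched was CTTTGNN with A or T at both N positions, on both strands and counting overlapping matches, over 300 bases from 250 before to 50 after each start site. Wnt11 had ATCAAAG 51 bases before its start site and Wnt5b had CTTTGAT 71 bases before its start site. The other window of Wnt11 and the other 2 windows of Wnt5b, at other start sites of these genes, held no match. The windows of Axin2 and Nkd1 held none of these letters. RefSeq's table had 34 windows for 28 of the 42 members, and 6 windows (17.6%) held at least 1 match. Over all 32851 windows in the table the share was 16.9%, so the members' windows held the core about as often as any. The other windows with a match belonged to Wnt3, Fzd7, Tcf7l2 and Dkk1.

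Library totals ran from 50670191 to 62970768 counts, and log2 levels of tested genes correlated at 0.982 to 0.988 between libraries of a day. The keratin genes Krt5 (14700 to 23100 CPM) and Krt14 (6640 to 13100 CPM) were abundant in all 9 libraries. The sum of 8 keratinocyte markers, these 2 included, was 45000 to 51300 CPM at day 1, 45700 to 48300 at day 7 and 35200 to 36800 at day 14. From day 7 to day 14, 4 of the 8 rose and 3 fell. CPM are counts per 1000000 of a library's total over tested genes multiplied by its TMM factor (0.894 to 1.096). A library's CPM therefore sum to 1000000 only before TMM. The 3 values for a day are always given in the order of libraries 4, 5 and 6 at days 1 and 14 and of libraries 1, 2 and 3 at day 7. Library 4 of day 1 and library 2 of day 7 stood apart from the others of their day by higher sums of dermal papilla markers and of fibroblast markers other than Postn. The summed level of 5 dermal papilla markers was 10.4, 4.52 and 2.44 CPM at day 1, 1.28, 6.15 and 1.7 CPM at day 7, and 3.08, 2.79 and 1.91 CPM at day 14. For 9 fibroblast markers (Postn, which was at 227 to 1500 CPM, left out) it was 229, 124 and 140, then 17.6, 64.3 and 19.2, then 37.9, 22.2 and 17.1 CPM. With Postn included it was 1640, 1510 and 1640, then 1320, 1380 and 1360, then 270, 249 and 251 CPM. The full fibroblast list thus did not set these 2 libraries clearly apart. All 6 melanocyte markers fell in both steps (10.2% of all tested genes did). The sum of these markers went from 358 to 387 CPM at day 1 to 4.04 to 8.62 CPM at day 14. All 4 tested leukocyte markers of 6 rose from day 7 to day 14 (background 32.5%), to a sum of 12.3 to 13.1 CPM, with Ptprc at 0.119 to 0.18 CPM. The sum of 4 Schwann cell markers was 35 to 37 CPM at day 1, 62.5 to 67.5 at day 7 and 117 to 130 at day 14. From day 1 to day 14, 2 of these 4 rose and 2 fell. Epithelial marker sums moved too. From day 1 through day 7 to day 14, hair matrix and inner sheath markers were at 191 to 203, 222 to 274 and 458 to 475 CPM, bulge and outer sheath markers at 5390 to 6720, 11400 to 12100 and 8840 to 9440 CPM, and sebocyte markers at 51.1 to 58.6, 62.8 to 77.5 and 222 to 225 CPM. Their part in the changes of the Wnt genes was not tested. The female-specific transcript Xist was at 861 to 1640 CPM at day 1, at 0 at day 7 and at 2330 to 2680 CPM at day 14, while the Y-linked Ddx3y was at 29 to 55.6, 101 to 112 and 0 CPM. Each day 1 library thus held RNA of both sexes, in unlike proportions (Xist 1550, 861 and 1640 CPM, Ddx3y 40.7, 55.6 and 29 CPM). Day 7 libraries held the Y-linked transcript without Xist, and day 14 libraries the reverse. The sex makeup of the libraries therefore differed between days, and age and sex cannot be told apart in these comparisons.

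Most Wnt genes differed between days, as did most of all tested genes. At day 14, 7 of 11 ligands were lower than at day 1 (63.6%, against 38.4% of all tested genes). Of 11 receptors, 8 were higher (72.7%, against 35.5%), or 3 with library totals as the scaling. The feedback genes were split. From day 1 to day 7, 27 of the 41 tested Wnt genes changed at an adjusted p under 0.05 in edgeR's quasi-likelihood test (65.9%, against 49.4% of all tested genes). Of these, 10 were higher (background 25.5%) and 17 lower (background 24%), with a median log2 fold change of -0.17 over the 41, against 0.00 over all tested genes. In the step from day 7 to day 14, 29 changed (70.7%, near the background of 67.6%). Of these, 18 were upward (background 32.5%) and 11 downward (background 35.1%), with a median of 0.21 against -0.04. Between day 1 and day 14, 38 differed (background 73.9%), 19 higher (background 35.5%) and 19 lower (background 38.4%), with a median of 0.03 against -0.05. A difference over the 3 days was called for 37 of the 41 (background 82.1%). Since most genes changed in this series, a call alone sets no Wnt gene apart. Because this is bulk RNA, a fall in a gene can mean fewer cells of a type or less RNA per cell, and these cannot be told apart.

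**Figure D1:**
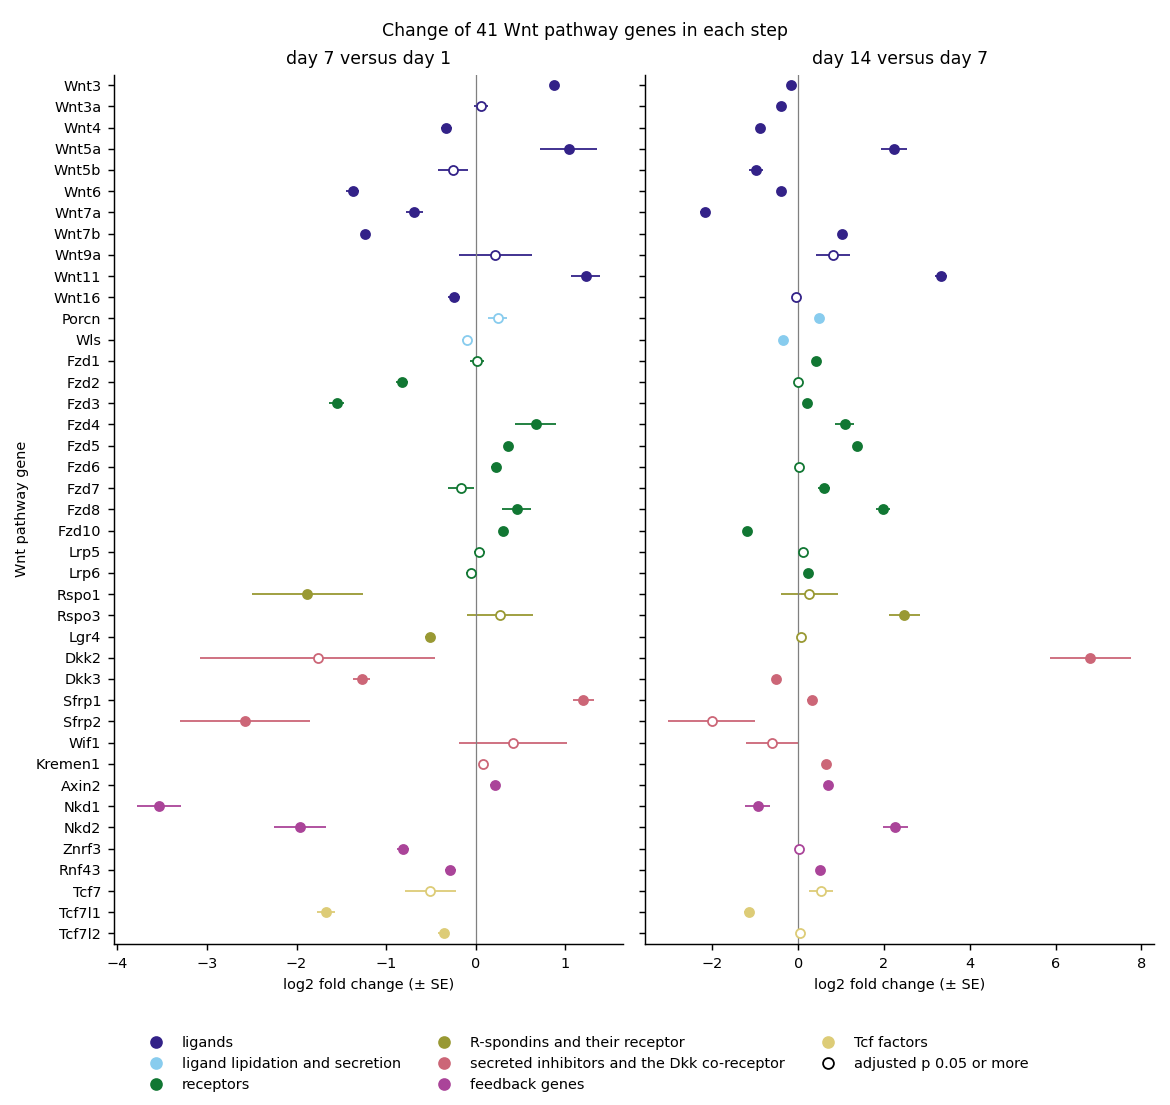
Log2 fold change ± SE (x axis) of each tested Wnt gene (y axis, coloured by role) from day 1 to day 7 (left) and from day 7 to day 14 (right), with the x axes scaled separately. Filled points have an adjusted p under 0.05 and open points do not. Nkd1 lies furthest to the left in the first step (-3.53), and Dkk2 furthest to the right in the second (6.81).

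Scaling matters to these splits. With library totals alone in place of TMM factors, the median over all tested genes was -0.1 in place of -0.001 (day 7 against day 1), -0.21 in place of -0.035 (day 14 against day 7) and -0.319 in place of -0.046 (day 14 against day 1). The share of called Wnt genes that were higher was then 24% in place of 37%, 50% in place of 62.1%, and 38.7% in place of 50%. Directions of the listed Wnt genes that turned with this scaling are named beside their values.

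By path over the 2 steps, 7 Wnt genes rose in both (Wnt5a, Wnt11, Fzd4, Fzd5, Fzd8, Sfrp1 and Axin2) and 6 fell in both (Wnt4, Wnt6, Wnt7a, Dkk3, Nkd1 and Tcf7l1). These were 17.1% and 14.6% of the 41, against 12.3% and 10.2% of all tested genes. With library totals alone, 1 of the 2 rises was not called for Fzd4, Fzd8, Sfrp1 and Axin2. Another 7 (17.1%) fell first and were not called in the second step (7.53% of all tested genes), and 7 (17.1%) were called only in the second step, upward (14% of all tested genes). Wnt7b, Fzd3, Nkd2 and Rnf43 fell and then rose (4 of 41, against 6.23% of all tested genes). Wnt3 and Fzd10 rose and then fell (2 of 41, against 7.24% of all tested genes).

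The ligands with the highest levels were Wnt4, Wnt7b, Wnt3 and Wnt16. Per kilobase of transcript, Wnt4 was at 154 ± 11.1 CPM per kb (mean ± SD, n = 3) at day 1, 123 ± 3.18 at day 7 and 65.9 ± 5.42 at day 14. Wnt7b was at 89.4 ± 1.89, 37.9 ± 0.792 and 76.5 ± 3.30 CPM per kb, and Wnt3 at 49.4 ± 0.910, 90.6 ± 3.89 and 80.4 ± 3.48 CPM per kb. The order of these levels therefore changed: Wnt4 stood first at days 1 and 7, and at day 14 the ranges of Wnt3 and Wnt7b (mean ± SD) overlapped above that of Wnt4. Wnt16, at 48.7 ± 2.93, 41.3 ± 3.95 and 40.0 ± 1.10 CPM per kb, overlapped with Wnt3 at day 1 only. Wnt6 was near them at day 1 (44.3 ± 2.87 CPM per kb) and well under them at day 14 (13.0 ± 1.38). Wnt9a, at 0.124 to 0.255 CPM per kb on average, was the lowest of the ligands.

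**Figure D2:**
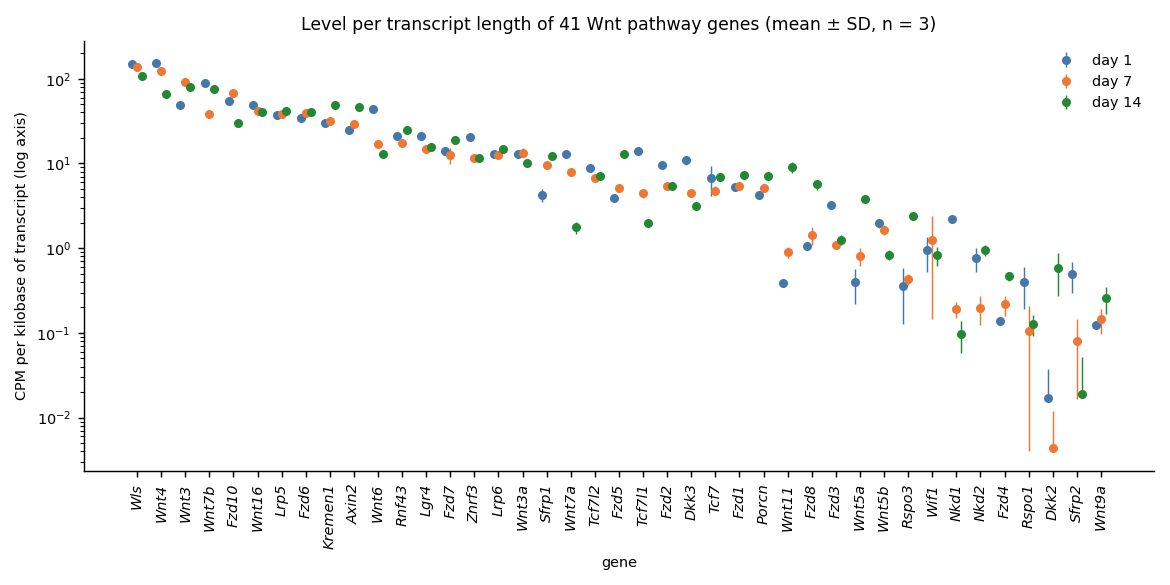
Mean CPM per kilobase of transcript ± SD (y axis, log scale, n = 3 libraries) of the 41 tested Wnt genes at each day, ordered by their mean over the 3 days. An SD as large as its mean is drawn upward only. Wls, Wnt4, Wnt3 and Wnt7b have the highest means, and Dkk2, Sfrp2 and Wnt9a stand at the low end.

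Of the 11 ligands, 3 (27.3%) rose and 5 (45.5%) fell in the first step, against 25.5% and 24% of all tested genes. In the second step 3 (27.3%) rose and 6 (54.5%) fell, against 32.5% and 35.1%. Between days 1 and 14, 4 (36.4%) were higher and 7 (63.6%) lower, against 35.5% and 38.4%. With library totals alone the ligand counts were 3 and 5, 3 and 7, and 3 and 7. Wnt4 (chromosome 4, 137277635 to 137299501, plus strand, GRCm38) is a ligand of epidermis and of many developing epithelia. It was at 597, 654 and 689 CPM at day 1, 516, 527 and 501 CPM at day 7, and 257, 271 and 301 CPM at day 14. No library of one day overlapped with those of another. Its log2 fold change was -0.33 ± 0.06 in the first step (adjusted p = 0.00113) and -0.90 ± 0.07 in the second (adjusted p = 1.58e-07).

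Wnt6 and Wnt7a, both epithelial ligands, also fell in each step, with no overlap between days. Wnt6 was at 84.9, 96 and 94.1 CPM at day 1, 36.2, 35.1 and 34.7 at day 7, and 25.7, 24.8 and 30.2 at day 14. Most of its fall came in the first step (-1.38 ± 0.07, adjusted p = 2.7e-08, then -0.39 ± 0.07, adjusted p = 0.000418). For Wnt7a the larger fall was the later one. Its levels were 38.6, 41.7 and 42.2 CPM, then 23.7, 27.1 and 25.2, then 6.39, 4.58 and 5.87, with changes of -0.69 ± 0.10 (adjusted p = 8.93e-05) and -2.18 ± 0.11 (adjusted p = 5.51e-09). At day 14 it stood at 0.137 times its day 1 level.

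Wnt3, a ligand of the beta-catenin branch, rose first. It was at 149, 155 and 153 CPM at day 1, 265, 288 and 282 at day 7, and 252, 235 and 254 at day 14. The first step was 0.87 ± 0.05 on the log2 scale (1.83-fold, adjusted p = 3.75e-08) and the second a smaller fall of -0.17 ± 0.05 (adjusted p = 0.00702), with day 14 libraries all between those of days 1 and 7. Wnt7b (chromosome 15, 85535437 to 85581821, minus strand) took the opposite path. Its libraries read 268, 265 and 276 CPM, then 115, 117 and 112, then 229, 222 and 242. It fell by 1.24 ± 0.05 (adjusted p = 2.1e-09), rose by 1.01 ± 0.05 (adjusted p = 2.65e-09) and ended lower than at day 1 (-0.22 ± 0.04, adjusted p = 0.000623).

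Wnt11 (chromosome 7, 98835084 to 98854747, plus strand) and Wnt5a, ligands known for signalling without beta-catenin, rose in both steps from low levels. Wnt11 was at 0.961, 1.13 and 0.944 CPM at day 1, 2.45, 2.67 and 1.95 at day 7, and 28, 21.9 and 21.9 at day 14. All libraries of a later day were above those of the earlier ones. The rises were 1.23 ± 0.16 (adjusted p = 4.87e-05) and 3.34 ± 0.14 (adjusted p = 1.78e-09), which made Wnt11 23.7-fold higher at day 14 than at day 1 (adjusted p = 8.39e-11). Wnt5a was at 2.96, 2.25 and 1.09 CPM, then 3.51, 5.53 and 3.95, then 21, 19.8 and 20.3. Its rise after day 7 was 2.23 ± 0.30 (adjusted p = 0.000251), and at day 14 it stood 9.64-fold above day 1 (adjusted p = 2.57e-05). The earlier rise of 1.04 ± 0.32 (adjusted p = 0.0279) was not called on leaving out library 5 of day 1 (adjusted p = 0.0645), library 2 of day 7 (0.0842) or library 3 of day 7 (0.0533). Library 2 of day 7, the one high in dermal papilla markers and in fibroblast markers other than Postn, had the highest Wnt5a of its day. With it and library 4 of day 1 both left out, the rise was 1.15 (adjusted p = 0.0116) and the later one 2.44 (adjusted p = 5.17e-05).

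The other ligands were Wnt3a, Wnt5b, Wnt16 and Wnt9a. Wnt3a was at 34.7, 38.5 and 34.1 CPM, then 33.6, 42 and 35.7, then 28.8, 27.1 and 28.4. Days 1 and 7 overlapped, and it fell in the second step (-0.40 ± 0.08, adjusted p = 0.000785). Wnt5b, at 4.67, 4.97 and 3.82 CPM, then 3.99, 4.09 and 3.19, then 2.02, 1.62 and 2.07, likewise fell only after day 7 by the test (-0.98 ± 0.17, adjusted p = 0.000269, against -0.25 ± 0.16 and 0.221 before). Whether its 2 steps differ was not tested. Wnt16 was at 78.4, 78 and 86.6 CPM, then 63.1, 66.8 and 75.9, then 64.8, 66.4 and 68.5. It was lower at day 7 than at day 1 (-0.24 ± 0.07, adjusted p = 0.0104), which library 6 of day 1 decided (adjusted p = 0.0515 without it), and its day 7 and day 14 libraries overlapped. With library totals alone, Wnt16 was called lower at day 14 than at day 7 (-0.22, adjusted p = 0.0108). Wnt9a stayed at 18 to 52 counts in any library. Its higher level at day 14 than at day 1 (1.03 ± 0.40, adjusted p = 0.0345) had an adjusted p from 0.014 to 0.117 with 1 library left out, and leaving out any of the 3 day 1 libraries or library 4 or 6 of day 14 ended the call.

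**Figure D3:**
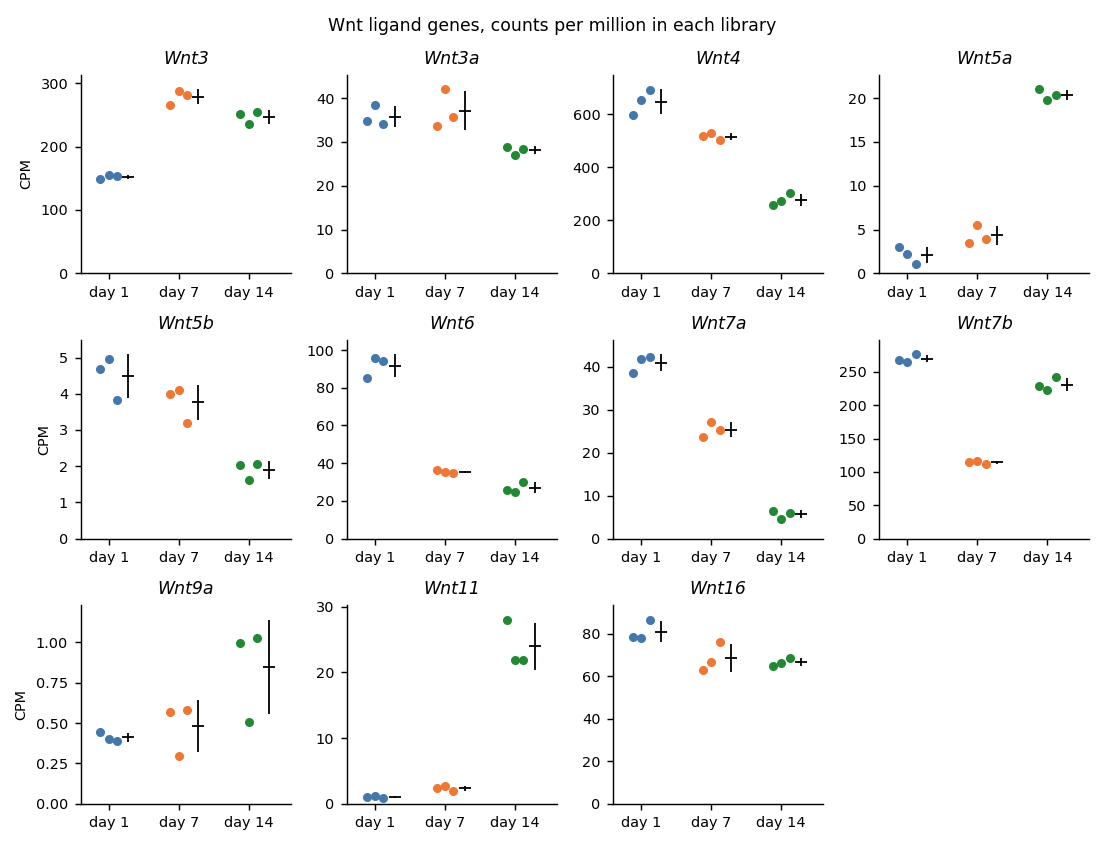
CPM (y axis, from 0, a separate scale for each gene) of the 11 Wnt ligand genes in each library by day, with the mean ± SD (n = 3) beside the points. Wnt4, Wnt6 and Wnt7a step down, Wnt11 and Wnt5a climb mainly after day 7, and Wnt7b dips at day 7 to 112 to 117 CPM.

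Of the genes that make ligands ready for release, Wls was among the most abundant Wnt genes (149 ± 6.69, 139 ± 3.35 and 109 ± 4.84 CPM per kb). It was at 462, 425 and 457 CPM, then 406, 424 and 424, then 313, 326 and 342. Wls fell from day 7 to day 14 (-0.35 ± 0.05, adjusted p = 3.98e-05), the step in which 6 of the 11 ligands fell. Porcn rose in that step (0.49 ± 0.10, adjusted p = 0.001), from 10.2, 9.72 and 10.7 CPM to 12.8, 15.2 and 15, after 9.7, 7.72 and 8.49 at day 1. Porcn lies on the X chromosome, and Xist was at 0 at day 7 and at 2330 CPM or more at day 14. The part of sex in its change was not tested.

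Most receptors were higher at day 14 than at day 1, a count that depended on the scaling. Of the 11 receptors, 5 (45.5%) rose and 2 (18.2%) fell in the first step, against 25.5% and 24% of all tested genes. In the second, 7 (63.6%) rose and 1 (9.09%) fell, against 32.5% and 35.1%. At day 14, 8 (72.7%) were higher and 3 (27.3%) lower than at day 1, against 35.5% and 38.4%. With library totals alone the receptor counts were 2 and 3, 5 and 3, and 3 and 3. From day 1 to day 14, Fzd4, Fzd5 and Fzd8 remained higher and Fzd2, Fzd3 and Fzd10 lower, while Fzd1 (0.17, adjusted p = 0.0705) and Fzd7 (0.16, adjusted p = 0.313) were no longer called. In the first step only Fzd5 and Fzd10 remained higher under that scaling. In the second, Fzd2 (-0.18, adjusted p = 0.0425) and Fzd6 (-0.15, adjusted p = 0.0243) were lower.

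Fzd5 (chromosome 1, 64730558 to 64737750, minus strand) was at 28.2, 27.3 and 26.7 CPM at day 1, 35.9, 33.5 and 36 at day 7, and 92.6, 90.2 and 88 at day 14. No days overlapped, and the rises were 0.36 ± 0.05 (adjusted p = 5.97e-05) and 1.36 ± 0.05 (adjusted p = 4.84e-10). Fzd8 was at 5.96, 6.9 and 6.07 CPM, then 11, 7.75 and 7.16, then 39.2, 30.9 and 31.8. Its rise after day 7 was 1.97 ± 0.16 (3.92-fold, adjusted p = 2.62e-06). Library 1 of day 7 was the highest of its day, and the earlier rise of 0.46 ± 0.16 (adjusted p = 0.0421) was 0.24 without it (adjusted p = 0.12). That call was lost in 5 of the 9 fits with 1 library left out. Fzd4, known also as the receptor of norrin, was at 1.01, 0.901 and 0.863 CPM, then 1.91, 1.3 and 1.18, then 3.02, 3.54 and 2.83. It rose by 1.09 ± 0.22 after day 7 (adjusted p = 0.000888), and its rise before (0.67 ± 0.23, adjusted p = 0.03) was 0.43 without library 1 of day 7 (adjusted p = 0.158) and was also not called without library 5 or 6 of day 1.

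Fzd10 (chromosome 5, 128601106 to 128604093, plus strand) went against this direction in the later step. Its libraries read 185, 183 and 170 CPM, then 213, 226 and 227, then 102, 94.9 and 93.6. After a rise of 0.31 ± 0.05 (adjusted p = 0.00042) it fell by 1.20 ± 0.05 (adjusted p = 2.59e-09), and every day 14 library was below every earlier one. Per kilobase, Fzd10 was the highest Frizzled gene at days 1 and 7 (55.2 ± 2.65 and 68.3 ± 2.43 CPM per kb). At day 14 it stood at 29.8 ± 1.40, under Fzd6 at 40.4 ± 1.13.

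Fzd2 and Fzd3 fell early. Fzd2 was at 33.7, 38.3 and 33.2 CPM, then 20.2, 19.5 and 19.8, then 21, 19 and 19.4, a first step of -0.82 ± 0.07 (adjusted p = 1.24e-06) with days 7 and 14 overlapping. Fzd3, at 41.6, 39.3 and 41 CPM, then 13.9, 13.5 and 14.2, then 16.3, 17.9 and 13.9, fell to 0.341 times its day 1 level (-1.55 ± 0.08, adjusted p = 2.82e-08). Its later rise of 0.21 ± 0.08 (adjusted p = 0.0416) had overlapping libraries and was not called in 8 of the 9 fits with 1 library left out (all but that without library 6 of day 14), so its place among the genes that fell and then rose is uncertain. Fzd1 was at 22.5, 23.5 and 21.2 CPM, then 23.5, 23.7 and 20.5, then 32.6, 30.1 and 28.3, and rose only in the second step by the test (0.43 ± 0.08, adjusted p = 0.000325). Fzd7 was at 63, 69.4 and 59.8 CPM, then 70.6, 50.5 and 49.9, then 96.5, 85.6 and 78.3. It rose after day 7 (0.61 ± 0.15, adjusted p = 0.00629). That call was lost without library 4 of day 1 and library 2 of day 7 together (0.51, adjusted p = 0.0501). The higher level of Fzd7 at day 14 than at day 1 (0.44 ± 0.14, adjusted p = 0.0245) was not called in 4 of the 9 fits with 1 library left out. Library 1 of day 7 lay above all day 1 libraries. Without that library Fzd7 was lower at day 7 than at day 1 (-0.35, adjusted p = 0.00691, against -0.17 and 0.377 with it).

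Fzd6, Lrp5 and Lrp6 differed little between days, and their order from day 1 to day 14 turned with the scaling. Fzd6 was at 139, 139 and 152 CPM, then 159, 171 and 170, then 170, 175 and 165. It was 0.22 ± 0.05 higher at day 7 than at day 1 (adjusted p = 0.00364), which was not called with library totals alone (0.12, adjusted p = 0.0704) or without library 4 of day 1 and library 2 of day 7 (0.18, adjusted p = 0.0537). It was 0.25 ± 0.05 higher at day 14 than at day 1 (adjusted p = 0.000831), or -0.03 with library totals alone. Lrp5 read 189, 201 and 195 CPM, then 210, 201 and 190, then 210, 204 and 239, a difference from day 1 to day 14 of 0.16 ± 0.06 (adjusted p = 0.0351) that was -0.11 with library totals alone. It was 0.08 (adjusted p = 0.189) without library 6 of day 14, the highest, and not called without library 4 or 6 of day 1 or library 2 of day 7. Lrp6, at 128, 121 and 118 CPM, then 120, 122 and 111, then 137, 138 and 141, differed by 0.18 ± 0.05 (adjusted p = 0.00536), or by -0.09 with library totals alone.

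**Figure D4:**
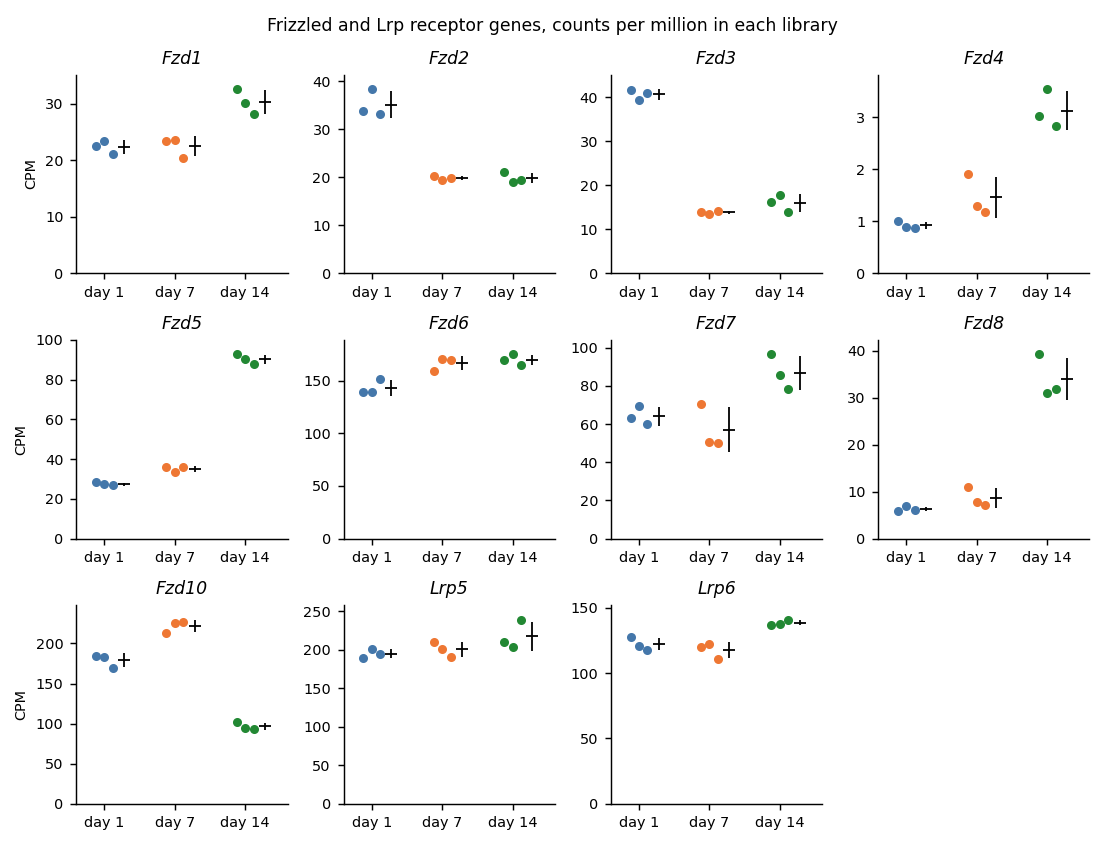
CPM (y axis, from 0, a separate scale for each gene) of the 9 Frizzled and 2 Lrp receptor genes in each library by day, with the mean ± SD (n = 3) beside the points. Fzd4, Fzd5 and Fzd8 climb to day 14, Fzd3 and Fzd2 drop by day 7, and Fzd10 drops at day 14 to 93.6 to 102 CPM.

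Among the R-spondins and their receptor, Lgr4 was at 115, 100 and 105 CPM, then 75.7, 74.2 and 74.7, then 82.3, 77.5 and 76.9. It fell in the first step (-0.51 ± 0.05, adjusted p = 6.98e-06) without overlap. Rspo3 was at 1.91, 0.853 and 0.553 CPM, then 1.18, 1.57 and 1.26, then 7.13, 8.01 and 7.22, and all day 14 libraries were above all others. Its rise after day 7 was 2.48 ± 0.36 (5.57-fold, adjusted p = 0.000145). Library 4 of day 1 was its highest at day 1. Without it, Rspo3 also rose from day 1 to day 7 (0.92, adjusted p = 0.00641, against 0.27 and 0.585 with it). Rspo1 was at 4 to 78 counts in all libraries, or 1.15, 0.515 and 0.504 CPM, then 0.0947, 0.408 and 0.0774, then 0.28, 0.264 and 0.159. Its fall from day 1 to day 7 (-1.88 ± 0.62, adjusted p = 0.0242) was not called without library 4 of day 1 (-1.37, adjusted p = 0.131), library 1 of day 7 (0.0858) or library 3 of day 7 (0.0879).

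The secreted inhibitors did not share one direction. Of the 6 tested genes of this group, Kremen1 included, 1 (16.7%) rose and 2 (33.3%) fell in the first step, against 25.5% and 24% of all tested genes. In the second, 3 (50%) rose and 1 (16.7%) fell, against 32.5% and 35.1%. With library totals alone, 2 rose and 1 fell in the second step. Sfrp1, a Frizzled-related protein that binds Wnt ligands, was at 19.2, 21.2 and 15 CPM, then 37.4, 44.5 and 45.6, then 52.6, 52.8 and 54.2. No days overlapped. It rose by 1.20 ± 0.12 in the first step (adjusted p = 1.97e-05), and the later rise of 0.33 ± 0.11 (adjusted p = 0.0283) had an adjusted p from 0.00314 to 0.0954 with 1 library left out. The later call was lost without library 4 of day 1, library 1 of day 7 or any of the 3 day 14 libraries, and with library totals alone (0.15, adjusted p = 0.293). Dkk3, a divergent member of the Dkk family, was at 41.7, 36.8 and 31.9 CPM, then 16.2, 14.9 and 14.5, then 10.5, 11.1 and 10.2. It fell by 1.28 ± 0.09 (adjusted p = 3.43e-07) and again by 0.52 ± 0.09 (adjusted p = 0.000355), with no overlap. Kremen1, the co-receptor through which Dkk proteins clear Lrp6, was at 142, 147 and 148 CPM, then 156, 158 and 147, then 237, 236 and 248. It rose only after day 7 by the test (0.65 ± 0.05, adjusted p = 1.26e-07).

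Dkk2 (chromosome 3, 132085266 to 132180304, plus strand) had few counts before day 14. There were 3, 9 and 0 counts at day 1, 0, 3 and 0 at day 7, and 71, 182 and 79 at day 14, or up to 0.145 CPM before and 1.42, 3.43 and 1.57 CPM after. The ratio of day 14 to day 7, scaled by library size, was 127 with a 95% interval of 43.2 to 620 that covers counting error only (adjusted p = 6.91e-05 in edgeR). Dkk2 passed the count filter only through its day 14 libraries. The filter thus favoured a rise to that day, and the p-value adds little to the counts. Sfrp2, often a gene of dermal cells, was at 1.43, 0.74 and 0.781 CPM, then 0.0632, 0.31 and 0.116, then 0, 0.113 and 0. It fell in the first step (-2.58 ± 0.72, adjusted p = 0.0108), a call with an adjusted p of 0.0528 without library 4 of day 1. Sfrp2 would not have passed the count filter without its day 1 libraries, so the filter favoured a fall from that day. Wif1, an inhibitor that binds Wnt ligands, was at 3.28, 1.67 and 1.55 CPM, then 1.44, 5.84 and 1.39, then 2.18, 2.19 and 1.35. Its days overlapped and no comparison was called.

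The libraries highest in dermal papilla markers and in fibroblast markers other than Postn were also high in several of these secreted genes. Within day 1, library 4 was the highest for Wnt5a, Rspo1, Rspo3, Sfrp2 and Wif1. Library 2 was the highest of day 7 for the same 5 genes. This was not limited to them: other members, Nkd2, Znrf3 and Lrp6 among them, were also highest in both libraries. How often this holds over all tested genes was not computed. Among the fibroblast markers, 0 of the 8 tested of 10 rose and 3 fell from day 1 to day 7 (background 25.5% and 24%). From day 7 to day 14, 0 rose and 1 fell (background 32.5% and 35.1%). The dermal papilla list had 0 rising and 1 falling of 5, then 1 rising and 0 falling, against the same backgrounds. The fibroblast marker Lum was at 0 in libraries 1 and 3 of day 7 and library 5 of day 14, while Dcn was at 5.05 CPM or more in all libraries. The part of stromal RNA in the values of Wnt5a, Rspo1, Rspo3, Sfrp2, Wif1 and the other members named here was not tested.

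Of the feedback genes, Nkd2 and Rnf43 fell and then rose, Nkd1 fell in both steps, Znrf3 fell in the first and Axin2 rose. From day 1 to day 7, 4 of 5 (80%) fell and 1 (20%) rose, against 24% and 25.5% of all tested genes. From day 7 to day 14, 3 (60%) rose and 1 (20%) fell, against 32.5% and 35.1%. With library totals alone, 4 fell and 0 rose in the first step, and 3 rose and 2 fell in the second. Axin2 (chromosome 11, 108917828 to 108950783, plus strand) was at 103, 107 and 110 CPM at day 1, 129, 116 and 124 at day 7, and 193, 193 and 210 at day 14. Each day lay above the one before without overlap. With library totals alone the first rise was 0.11 and not called (adjusted p = 0.0799). With TMM factors the rises were 0.21 ± 0.05 (adjusted p = 0.00645) and 0.69 ± 0.05 (adjusted p = 2.96e-07), so Axin2 was 1.86-fold higher at day 14 than at day 1 (adjusted p = 1.38e-08).

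Nkd1 (chromosome 8, 88521342 to 88594887, plus strand), which binds Dishevelled, had the steepest early fall. It was at 8.59, 7.16 and 7.91 CPM at day 1, 0.505, 0.766 and 0.774 at day 7, and 0.359, 0.49 and 0.199 at day 14. The first step was -3.53 ± 0.25 (0.0863 times the day 1 level, adjusted p = 2.62e-07). The second, on 10 to 47 counts per library, was -0.95 ± 0.29 (adjusted p = 0.0123), and was not called by limma-voom (adjusted p = 0.0718), in a fit of days 7 and 14 alone (0.0646) or without library 4 of day 1 and library 2 of day 7 together (-0.86, adjusted p = 0.053). Nkd2 fell and came back. Its libraries read 4.08, 3.07 and 2.13 CPM, then 0.663, 1.13 and 0.58, then 4.27, 4.05 and 3.14. The steps were -1.96 ± 0.29 (adjusted p = 0.000153) and 2.27 ± 0.30 (adjusted p = 2.52e-05), with days 1 and 14 overlapping (0.30 ± 0.27, adjusted p = 0.324).

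The ubiquitin ligases Znrf3 and Rnf43, which remove Frizzled receptors, both fell in the first step. Znrf3 was at 122, 104 and 117 CPM, then 64.9, 70.4 and 59.5, then 65.5, 63.6 and 67.4. Its change was -0.82 ± 0.07 (adjusted p = 1.2e-06), and days 7 and 14 overlapped. Its second step of 0.01 ± 0.07 (adjusted p = 0.882) turned to -0.16 with library totals alone (adjusted p = 0.0475). Rnf43 was at 83.7, 89.6 and 98.6 CPM, then 79.4, 70.9 and 73, then 107, 105 and 106. It fell by 0.28 ± 0.06 (adjusted p = 0.00203) and rose by 0.51 ± 0.06 (adjusted p = 1.11e-05), and its difference from day 1 to day 14 of 0.23 ± 0.06 (adjusted p = 0.00443) was -0.04 with library totals alone.

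The Tcf factors carry the signal to target genes, Tcf7l1 mainly as a repressor. Tcf7l1 (chromosome 6, 72626371 to 72789045, minus strand), a factor of follicle stem cells and embryonic epidermis, was at 36.3, 34.4 and 34.2 CPM, then 12, 11.5 and 9.36, then 4.69, 5.58 and 4.48. No days overlapped. It fell by 1.67 ± 0.10 (adjusted p = 7.16e-08) and by 1.16 ± 0.11 (adjusted p = 1.31e-06), to 0.141 times its day 1 level. Tcf7l2, at 27.4, 25.2 and 26 CPM, then 21.5, 20.2 and 19.5, then 21.3, 21.2 and 20.8, fell by 0.36 ± 0.06 in the first step (adjusted p = 0.000394). Tcf7 was at 7.94, 17.9 and 17.1 CPM, then 11.2, 10.2 and 8.78, then 15.1, 13.9 and 14.7, with library 4 of day 1 below all the others. With all 9 libraries, edgeR called no comparison of Tcf7, whereas DESeq2 called the second step (0.56, adjusted p = 0.0296), as did a fit of days 7 and 14 alone (0.52, adjusted p = 0.000663). Without library 4 of day 1, Tcf7 was lower at day 7 than at day 1 (-0.80, adjusted p = 6.95e-05), higher at day 14 than at day 7 (0.52, adjusted p = 0.000388) and lower at day 14 than at day 1 (-0.28, adjusted p = 0.0261).

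**Figure D5:**
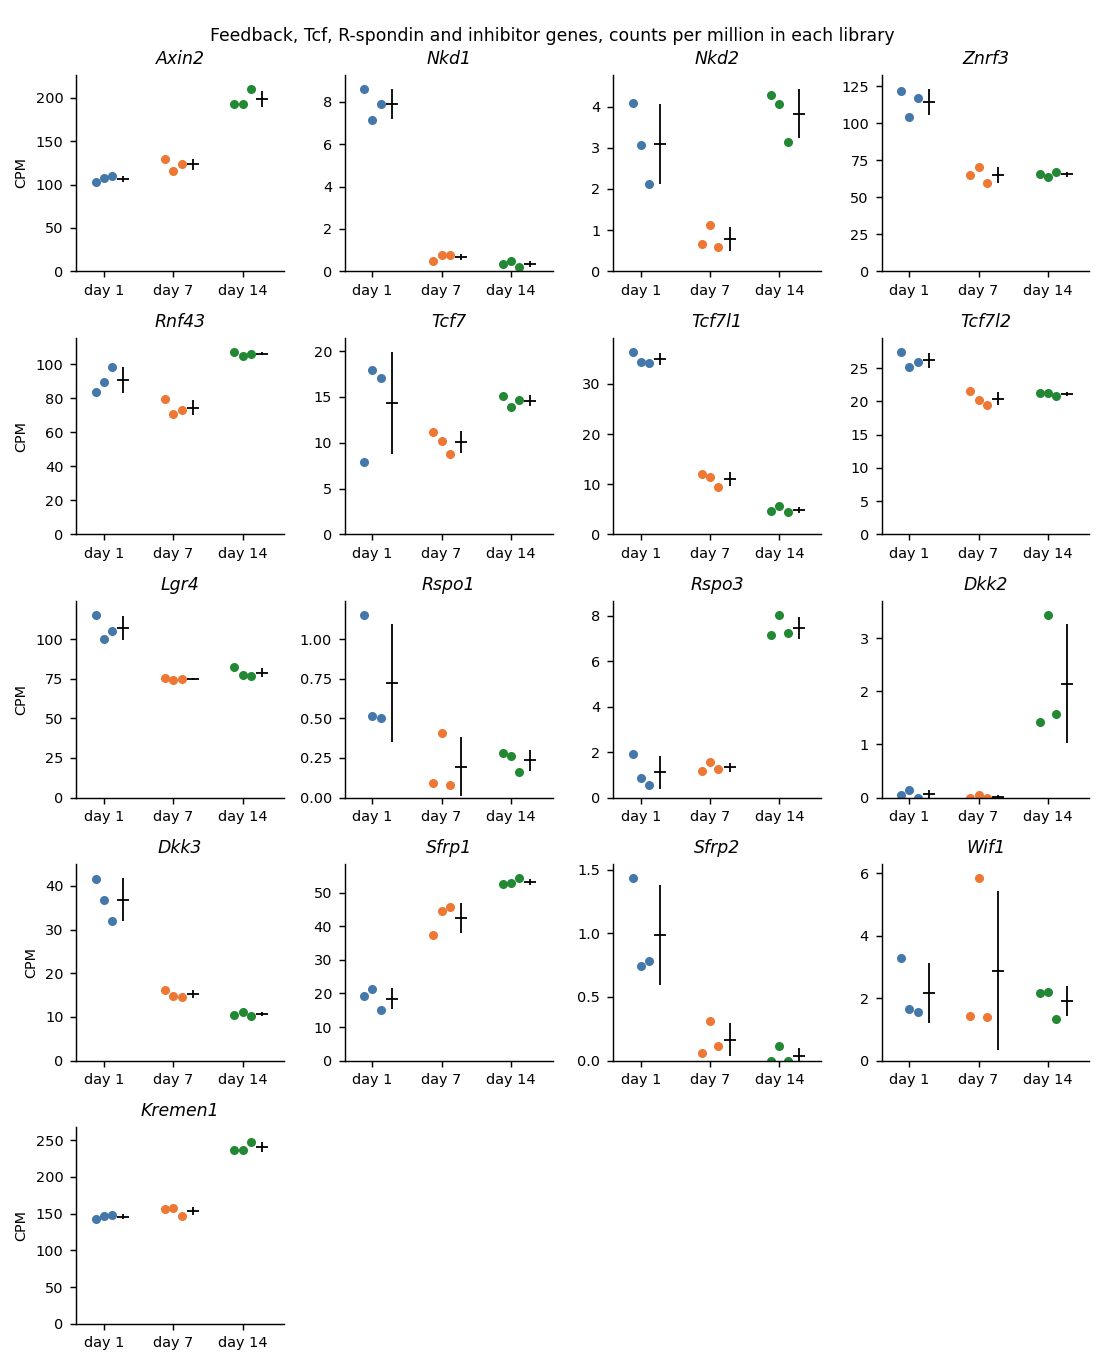
CPM (y axis, from 0, a separate scale for each gene) of the feedback, Tcf, R-spondin, Lgr4 and inhibitor genes in each library by day, with the mean ± SD (n = 3) beside the points. Axin2 climbs, Nkd1 and Tcf7l1 drop, Nkd2 dips at day 7, and single libraries stand out for Tcf7 (7.94 CPM at day 1) and Wif1 (5.84 CPM at day 7).

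Other genes of the pathway give the setting. Counts with library totals alone were made for the 42 listed genes only. How far the counts of the lists below depend on the scaling was not tested. In the destruction complex and cytoplasmic relay, 0 of 18 rose and 10 fell in the first step, and 12 rose and 2 fell in the second. Of all tested genes, 25.5% rose and 24% fell in the first step, and 32.5% rose and 35.1% fell in the second. The median of the 18 was -0.17 and then 0.23, against 0.00 and -0.04 over all tested genes. Ctnnb1, which encodes beta-catenin, was at 1230, 1210 and 1190 CPM at day 1, 797, 789 and 784 at day 7, and 745, 735 and 739 at day 14 (-0.61 ± 0.04, adjusted p = 5.42e-08, in the first step). Dvl1, a Dishevelled gene that relays the signal from Frizzled, rose by 0.60 ± 0.05 from day 7 to day 14 (adjusted p = 4.26e-07), and the casein kinase gene Csnk1d by 0.41 ± 0.04 (adjusted p = 2.77e-06). Amer1, a scaffold gene on the X chromosome, rose by 0.96 ± 0.05 in the same step (adjusted p = 1.99e-08), in which Xist also rose. The part of sex was not tested.

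Of 13 nuclear partners of beta-catenin and Tcf, 1 rose and 4 fell in the first step, and 5 rose and 5 fell in the second. Together these calls were 38.5% and 76.9% of the 13, against 49.4% and 67.6% of all tested genes. Tle4, a co-repressor that binds Tcf factors, was at 28 to 29.9 CPM at day 1, 40.2 to 43.7 at day 7 and 102 to 104 at day 14. Its rises were 0.53 ± 0.05 (adjusted p = 1.92e-06) and 1.29 ± 0.05 (adjusted p = 6.46e-10). The beta-catenin coactivator genes Bcl9l (1.19 ± 0.06, adjusted p = 3.81e-09) and Pygo2 (0.74 ± 0.05, adjusted p = 4.35e-08) also rose after day 7, whereas Bcl9 fell before it (-0.67 ± 0.05, adjusted p = 3.03e-07). Lef1, the Lef factor of hair follicle formation, was singled out after its values were seen. It was at 76.3, 67.4 and 79.1 CPM at day 1, 3.73, 5.56 and 2.55 at day 7, and 3.2, 1.19 and 0.497 at day 14 (-4.22 ± 0.50, adjusted p = 0.000568, in the first step).

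Among 15 planar polarity and alternative receptor genes, 3 rose and 4 fell in the first step, and 5 rose and 4 fell in the second. Together these calls were 46.7% and 60% of the 15, near the 49.4% and 67.6% of all tested genes. Prickle2, a planar polarity gene, was at 6.61 to 10.4 CPM at day 1, 27.8 to 29.8 at day 7 and 86 to 95.9 at day 14, with rises of 1.75 ± 0.14 (adjusted p = 7.74e-06) and 1.63 ± 0.13 (adjusted p = 4.07e-06). Daam1, a formin gene downstream of Dishevelled, also rose in both steps (0.54 ± 0.07, adjusted p = 4.55e-05, and 0.36 ± 0.07, adjusted p = 0.00057). Ror1, a gene for a Wnt5a receptor, fell from 96.1 to 104 CPM at day 1 to 44.8 to 48.1 at day 7 and 16.5 to 19.4 at day 14. Its steps were -1.12 ± 0.06 (adjusted p = 3.6e-08) and -1.35 ± 0.06 (adjusted p = 4.29e-09). Ryk, another Wnt receptor gene, fell by 0.14 ± 0.05 (adjusted p = 0.0228) and by 0.52 ± 0.05 (adjusted p = 8.24e-07). Wnt5a thus rose while Ror1 and Ryk fell, but these were named for their small adjusted p. Ror2, also in this list, was not among the 4 genes named, so the alternative receptors are not described as a set.

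Of 23 other secreted and membrane Wnt genes, 17 were tested. In the first step 7 rose and 8 fell, and in the second 1 rose and 6 fell. Together these calls were 88.2% and 41.2% of the 17, against 49.4% and 67.6% of all tested genes. Kremen2, the paralog of Kremen1, went from 127, 135 and 152 CPM at day 1 to 26.7, 26.1 and 25.7 at day 7 (-2.40 ± 0.07, adjusted p = 3.01e-10), a step in which Kremen1 was not called. Wnt10b, a ligand of hair follicle placodes, went from 120, 110 and 128 CPM to 44.9, 48.2 and 46.2 in the same step (-1.36 ± 0.07, adjusted p = 1.5e-08). The membrane inhibitor gene Apcdd1 rose by 0.30 ± 0.05 (adjusted p = 0.000199) and then fell by 0.89 ± 0.05 (adjusted p = 1.04e-08). Dkkl1, related to the Dkk genes, rose from 0.0976 to 0.237 CPM at day 1 to 1.26 to 1.7 at day 7 (3.17 ± 0.33, adjusted p = 6.88e-06).

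The 4 other target genes did not move as one, with 2 rising and 2 falling in the first step (background 25.5% and 24%). Sp5, a direct target of beta-catenin signalling in many tissues, was at 1.88, 2.82 and 1.95 CPM at day 1, 0, 0.0652 and 0 at day 7, and 0 in all day 14 libraries (adjusted p = 3.15e-05 for the first step). It passed the count filter only through its day 1 libraries, which favoured a fall from that day. Tnfrsf19 rose by 0.82 ± 0.06 (adjusted p = 2.05e-07) and then fell by 0.52 ± 0.06 (adjusted p = 4.57e-06). Ccnd1, the cyclin D1 gene, fell by 0.33 ± 0.08 (adjusted p = 0.00683) and then rose by 0.80 ± 0.08 (adjusted p = 6.16e-06). Myc rose in both steps (1.12 ± 0.16, adjusted p = 0.000672, and 0.67 ± 0.15, adjusted p = 0.00577). Genes induced by tissue handling moved in the same steps. From day 1 to day 7, 4 of 10 rose (background 25.5%). From day 7 to day 14, 8 rose and 2 fell (background 32.5% and 35.1%). Their summed level was 17500 to 21500, 21900 to 26700 and 35200 to 38700 CPM. The part of handling in the values of Myc and Ccnd1 was not tested.

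An antisense gene overlaps exons of 9 members (Wnt5a, Wnt7b, Wnt11, Fzd5, Fzd6, Rspo3, Sfrp2, Axin2 and Tcf7l1). The strand setting of the counting is not given in the sources used here, so reads of these genes and of their antisense partners cannot be told apart.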

How the data were processed

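The authors' deposited values used here are raw read counts for each gene, per the file headers, in whole numbers without normalisation. The submitters' processing notes name HISAT2 2.1.0 and StringTie 1.3.4d beside bcl2fastq 2.20.0 and Trimmomatic, with build mm10. The counting step is not given in the sources used here. Columns were given to days by their headers, in which D0 was taken as day 1, and headers could not be matched to single sample titles. A further 18 columns of TPM and FPKM were not used.

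Scaling used TMM, and the test was that of edgeR 4.0.16 under R 4.3.3 (filterByExpr, robust quasi-likelihood F test, 1 model over 9 libraries with day as a factor, Benjamini-Hochberg adjustment over 14507 genes, called at an adjusted p under 0.05). An SE is the log2 fold change divided by the square root of F. Levels per kilobase use the mean length of the RefSeq transcripts in the annotation, found for 42 of 42 members. Coordinates come from RefSeq's GRCm38.p6 gene records, matched for 24462 of 24532 genes. The code was tested on simulated counts. Alternatives were RLE factors, library totals, DESeq2 1.42.0, limma 3.58.1 (voom), a minimum fold of 1.5, other filters, fits of 2 days, the replicate block and leaving out each library. Leaving out library 4 of day 1 and library 2 of day 7 together was chosen after seeing the data.

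All 42 listed genes are named. For other pathway genes, up to 4 called genes of smallest adjusted p are named per list. The members and lists were chosen with earlier results of these data known.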

Additional observations from a re-analysis of the deposited data

How the results depend on the processing

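Against a minimum fold of 1.5, the Wnt genes changed were 13 from day 1 to day 7 (3 higher, 10 lower), 15 from day 7 to day 14 (10 higher, 5 lower) and 23 from day 1 to day 14 (11 higher, 12 lower), since this test asks for larger changes. With library totals alone, 6 were higher at day 7 than at day 1 and 12 were higher at day 14 than at day 1. The same scaling turned the direction of Fzd6 (-0.147 for day 14 against day 7 and -0.025 for day 14 against day 1), Znrf3 (-0.16 for day 14 against day 7), and Lrp5 (-0.11), Lrp6 (-0.0918) and Rnf43 (-0.0442) for day 14 against day 1. With 1 library left out, the log2 fold change of Tcf7 from day 1 to day 14 ran from -0.2787 to 0.2069, and it was -0.2792 without library 4 of day 1 and library 2 of day 7. All other counts of changed, higher or lower Wnt genes stayed within 1.5 times their value under the alternatives run. Leaving out these 2 libraries together gave 28, 26 and 36 changed Wnt genes in the 3 comparisons and 37 over the 3 days.

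Headers give days 1 and 14 the same numbers, but deviations of same-numbered libraries correlated at only 0.012, 0.007 and 0.092, and libraries 4 and 5 correlated best with each other's number, so the numbers were not taken as pairs. With a replicate block, 36 Wnt genes changed from day 1 to day 14 (17 higher, 19 lower), and the calls of Wnt9a (adjusted p = 0.0684) and Lrp5 (adjusted p = 0.0613) were lost. Of 94 calls on single Wnt genes, 12 were lost on leaving out at least 1 library, and 9 further calls were gained. Levels were compared between genes only per kilobase, so that alternative has no separate value. Counts of 0 to 30 per library limit what can be said of Dkk1, Dkk2 before day 14, Rspo1 and Sfrp2 after day 1.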
